A study of Mus musculus with 12 samples.

Results

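The expression of 10 genes of the death receptor and necroptosis pathway was followed in H9c2 cells exposed to doxorubicin (DOX), an anthracycline chemodrug with known cardiotoxicity. The genes are Tnfrsf1a, Tnfrsf12a, Fadd, Ripk1, Ripk3, Mlkl, Cflar, Birc2, Birc3 and Xiap, taken by gene symbol from a table of 54345 genes, and each symbol matched 1 gene. Poly(A) RNA was sequenced in 12 libraries, 3 in each of 4 groups. Unt cells were untreated, DOX cells received doxorubicin, D_DXZ cells received doxorubicin with dexrazoxane, a clinical iron-chelating cardioprotectant, and D_MgHCF cells received doxorubicin with nanocatalysts of magnesium hexacyanoferrate. All 3 treated groups therefore share doxorubicin, no group received either protective agent alone, and every group was taken at 6 h. The doses given to the sequenced cells are not given in the sources used here. All libraries came from 1 cell line of WT genotype, H9c2(2-1), labelled as a myoblast. The labels name Mus musculus as the organism and the table holds mouse genes, while the study describes the cells as rat. How well the reads of each gene aligned to the mouse genome was not tested, so a level compared between genes carries this limit. The sources do not say whether replicates came from separate cultures, so that p-values measure only the spread between these samples, which may be technical.

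The tumour necrosis factor receptor TNFR1, encoded by Tnfrsf1a, assembles a complex on its cytoplasmic death domain in which the ubiquitin ligases cIAP1 (Birc2) and cIAP2 (Birc3) modify the kinase RIPK1 and promote survival signalling. When this ubiquitin is lost, RIPK1 joins the adaptor FADD and caspase 8, which starts apoptosis unless cFLIP (Cflar) restrains the caspase. Where caspase 8 is inactive, RIPK1 engages RIPK3, which phosphorylates MLKL, and MLKL then breaches the plasma membrane in the lytic death called necroptosis. XIAP binds and inhibits executioner and initiator caspases further downstream. Both apoptosis and necroptosis have been studied as routes of cardiomyocyte loss in the injured heart. The libraries report transcript levels and not the phosphorylation, cleavage or ubiquitination through which these proteins act.

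The values are the deposited FPKM, read fragments relative to gene length and library size, and each mean is given ± SD with n = 3. All 10 genes had an FPKM above 0 in all 12 libraries and were tested. The tables held 16626514 to 19365119 reads on genes per library. Among the 10 genes, the reads behind 1 value ranged from 15 to 144 for Birc3 and from 19 to 478 for Fadd, and from 82 upwards for the others, so that Birc3 and Fadd rested on the fewest reads. The D_MgHCF libraries agreed less with each other than the rest. Their pairwise correlations of log2(FPKM + 1) were 0.942 to 0.984, against 0.989 to 0.995 within the other groups, and the lower 2 of these pairs included replicate 3. For the 10 genes, a difference between D_MgHCF and another group that changed call or sign without this library is given with and without it. The labelled cell type was only partly borne out by its markers. Vim had mean levels of 121.6 to 1042 FPKM and Des of 0.542 to 1.46, whereas the myogenic factors Myod1, Myf5 and Myog stayed at or below a mean of 0.054 in every group. Of the 6 cardiac muscle genes examined, Gata4 alone reached 1 FPKM in any group mean. The summed level of 5 leukocyte markers spanned 1.04–1.23 FPKM for Unt, 3.16–3.85 for DOX, 2.04–5.59 for D_MgHCF and 4.15–4.73 for D_DXZ, of which Cd68 was the main part, while Ptprc and Adgre1 had means of at most 0.007 and 0.005. The 5 fibroblast markers summed to 45.1–51.1 FPKM for Unt, 97.4–122.0 for DOX, 22.0–39.6 for D_MgHCF and 76.7–103.3 for D_DXZ, and the 4 endothelial markers to 0.0513–0.0963, 0.0483–0.1998, 0.263–1.08 and 0.0131–0.0732. Mitochondrial genes took 1.19–1.41% of reads for Unt, 2.73–2.89% for DOX, 1.76–3.16% for D_MgHCF and 2.73–3.27% for D_DXZ. The 7SK RNA gene Rn7sk took at most 0.000271% for Unt and D_MgHCF and 0.0212–0.06% for DOX and D_DXZ. In D_MgHCF 23368 to 25456 genes were above 0, against 18530 to 20660 in the other groups. The part of other cells and of these differences in the results was not tested.

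Differences were tested with limma on log2(FPKM + 1), with Benjamini-Hochberg adjustment over the 25044 genes tested, and a gene was said to rise or fall at an adjusted p under 0.05. The log2 fold changes below are on this scale, which makes the change of a low gene smaller. Where groups are said not to overlap, the share of all genes without such overlap was not counted. The direction of several genes depends on how libraries are scaled. The deposited FPKM include a median-ratio factor, which relative to the plain number of reads spanned 1.32–1.38 for Unt, 1.26–1.43 for D_MgHCF, 0.647–0.784 for DOX and 0.747–0.892 for D_DXZ. Rescaled to TPM, the median change of 13266 genes with a group mean of at least 1 FPKM moved from 0.03 to -1.08 for DOX against Unt and from 0.08 to 1.13 for D_MgHCF against DOX. Relative to the summed reads these medians were -0.59 and 0.75, and with quantile normalization 0.03 and 0.03. Changes under these scalings are therefore also given relative to the median gene. For D_MgHCF against Unt the medians were -0.02, -0.16, -0.00 and -0.03 with the deposited FPKM, TPM, summed reads and quantile normalization. In bulk RNA, fewer cells of a type and less RNA per cell cannot be told apart, and this holds for every level below.

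To place the genes whose levels moved apart from each other, the 150 bases before the start of transcription are shown for 4 of them, the kinases Ripk3 and Ripk1, the substrate Mlkl and the ligase Birc2. The sequences are from RefSeq on GRCm38.p6, 5′ to 3′ on the strand of the gene, with capitals for matches to the motifs searched on both strands. The windows are Ripk3 at chr14:55788858-55789007 (minus strand), Mlkl at chr8:111338206-111338355 (minus strand), Ripk1 at chr13:34002213-34002362 (plus strand, the first of the starts listed) and Birc2 at chr9:7837058-7837207 (minus strand, the first of the starts listed).
Ripk3: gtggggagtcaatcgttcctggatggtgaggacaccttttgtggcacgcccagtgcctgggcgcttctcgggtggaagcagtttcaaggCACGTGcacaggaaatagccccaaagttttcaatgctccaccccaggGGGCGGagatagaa
Mlkl: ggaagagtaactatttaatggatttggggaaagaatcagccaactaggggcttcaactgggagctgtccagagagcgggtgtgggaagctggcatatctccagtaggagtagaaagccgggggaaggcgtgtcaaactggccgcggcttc
Ripk1: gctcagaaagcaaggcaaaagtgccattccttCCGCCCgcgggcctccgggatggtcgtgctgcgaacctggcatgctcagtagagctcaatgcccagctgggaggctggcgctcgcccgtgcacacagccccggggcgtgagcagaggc
Birc2: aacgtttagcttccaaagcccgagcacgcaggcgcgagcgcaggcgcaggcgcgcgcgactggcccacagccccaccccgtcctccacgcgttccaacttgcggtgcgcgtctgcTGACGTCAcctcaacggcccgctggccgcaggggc
The Ripk3 window held CACGTG, which stood in 4.30% of 32851 mouse promoter windows of this length, and GGGCGG, which stood in 28.6%. The Mlkl window held none of the motifs searched, and these letters are only a description of this window. The Ripk1 window held GGGCGG on the other strand, and the Birc2 window held TGACGTCA, found in 1.36% of all windows. Over the 14 starts listed for the 10 genes, GGGCGG stood in 8 starts of 6 genes and CCGGAAG, found in 5.52% of all windows, in 4 starts of 4 genes. TATAAA (7.57% of all windows) stood in 1 of the 14. No start held the NF-kB consensus (4.60% of all windows), CCAAT (24.5%) or TGANTCA (4.24%). A CCGGAAG match can overlap a GGGCGG match. The sequences are of the mouse genome to which the table refers, not of the rat.

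The question whether doxorubicin alters these genes is answered by DOX against Unt. Of the 10 genes, 7 were called, 2 higher and 5 lower, where 38.4% of all genes tested were called, 18.6% higher and 19.9% lower. The median log2 fold change of the 10 was -0.50, beside 0 over all genes tested. Tnfrsf1a, Fadd, Ripk1, Birc2 and Birc3 fell, and Ripk3 and Mlkl rose, Mlkl with the deposited scaling but not with TPM, summed reads or quantile normalization. Under TPM 1 was called higher and 9 lower, where 4.44% and 40.8% of all genes were, under summed reads 1 and 8 (8.29% and 33.2%), and under quantile normalization 1 and 6 (16.7% and 17.3%). When magnesium hexacyanoferrate was added (D_MgHCF against DOX), again 7 genes were called, 5 higher and 2 lower, where 51.5% of all genes were called, 31.4% higher and 20.1% lower. The median of the 10 was 0.32, beside 0.07 over all genes tested. Under TPM 9 were called higher and 0 lower (53.9% and 6.75% of all genes), under summed reads 9 and 1 (49.4% and 9.59%), and under quantile normalization 5 and 2 (18.5% and 19.6%). Without DOX replicate 2, 4 of the 10 were called (44.1% of all genes). With dexrazoxane (D_DXZ against DOX) none of the 10 was called with limma, nor was any of the 25044 genes (0% in either direction). These comparisons share the DOX libraries and are set side by side for that reason, without any measure of their likeness.

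**Figure D1:**
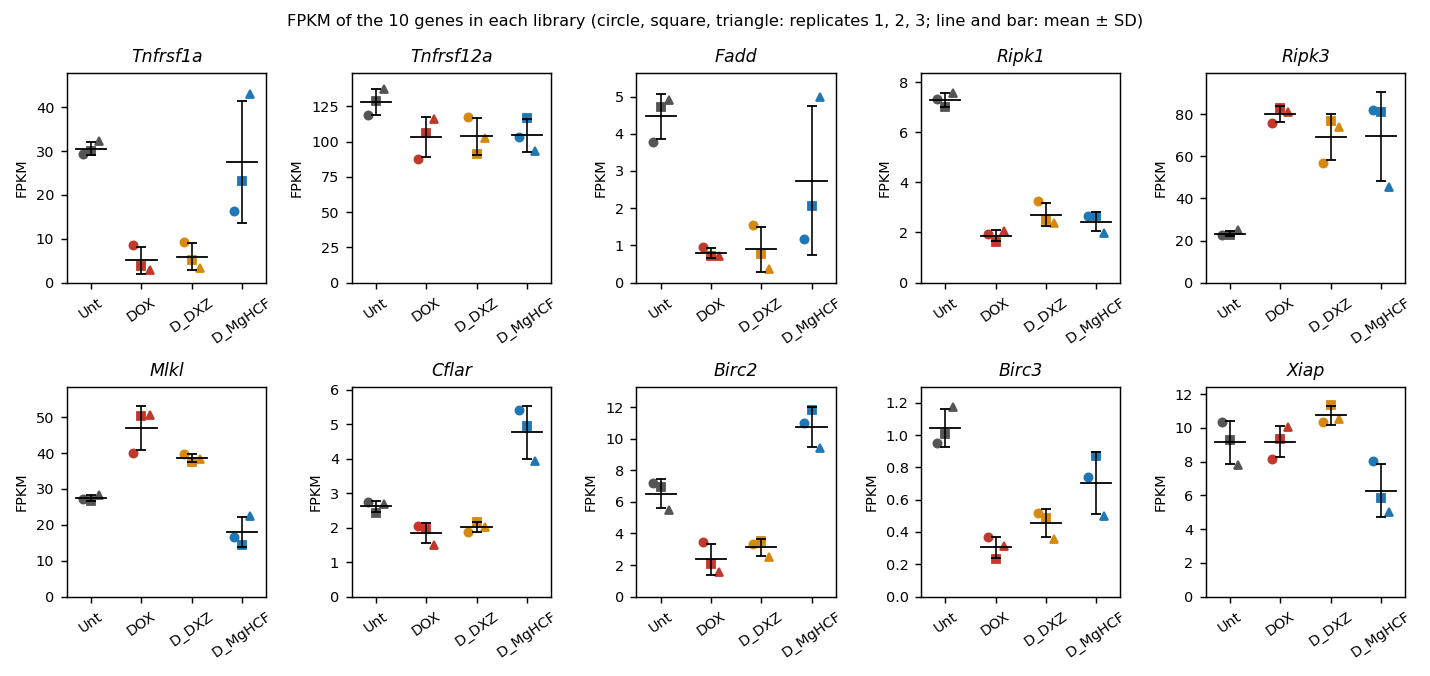
FPKM of each of the 10 genes in the 12 libraries, 1 panel per gene, with points for libraries, grouped as Unt, DOX, D_DXZ and D_MgHCF on the horizontal axis, lines for the group means and bars for the SD. Tnfrsf1a lies at 29.5 to 32.3 FPKM in Unt and at 2.80 to 8.67 in DOX, whereas Xiap overlaps between these groups.

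**Figure D2:**
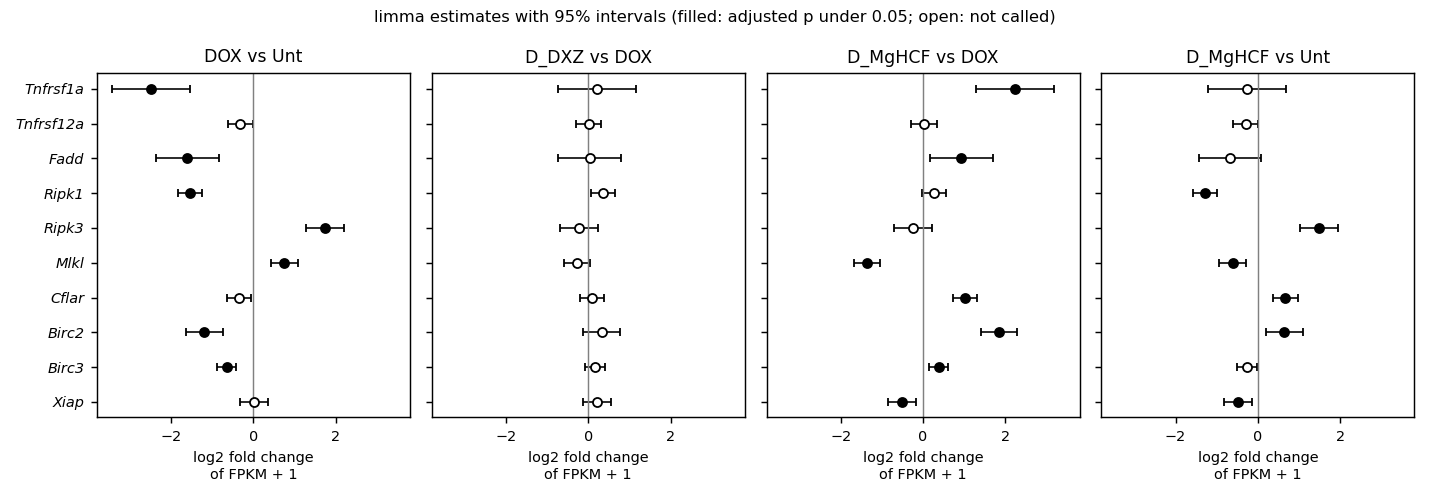
Log2 fold change of each gene on the log2(FPKM + 1) scale in DOX against Unt, D_DXZ against DOX, D_MgHCF against DOX and D_MgHCF against Unt, with bars for 95% intervals and filled points for an adjusted p under 0.05. No point is filled for D_DXZ against DOX, and Mlkl lies at 0.75 for DOX against Unt and at -1.36 for D_MgHCF against DOX, the first of which turns negative under TPM, summed reads and quantile normalization.

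The receptors are described first. Tnfrsf1a (ENSMUSG00000030341, GRCm38 chromosome 6, 125349362 to 125362484, plus strand), the receptor for tumour necrosis factor, had 29.5, 30.1 and 32.3 FPKM in the Unt libraries, 8.67, 3.85 and 2.80 in DOX, 9.25, 5.18 and 3.32 in D_DXZ and 16.3, 23.2 and 43.0 in D_MgHCF. Every DOX and D_DXZ library lay below every Unt library, and the D_MgHCF libraries, the highest of which was replicate 3, spread on both sides of Unt. The means were 30.6 ± 1.48, 5.11 ± 3.13, 5.92 ± 3.03 and 27.5 ± 13.9 FPKM, so that the DOX mean was 0.167 of the Unt mean and the D_MgHCF mean was 5.38 times the DOX mean. Tnfrsf1a fell with DOX by 2.49 on the log2 scale (SE 0.43, limma adjusted p = 0.000784) and was higher in D_MgHCF than in DOX by 2.23 (adjusted p = 0.00143). Without D_MgHCF replicate 3 the latter was 1.86, still called. Both calls and both signs were kept in all 22 alternatives, and relative to the median gene the fall with DOX was -2.85 with TPM, -2.71 with summed reads and -2.78 with quantile normalization. D_MgHCF and Unt differed by -0.26 with a 95% interval of -1.21 to 0.69 (adjusted p = 0.666), an interval that leaves room for a difference of more than 1 log2 unit below Unt. This estimate ranged from -0.63 without D_MgHCF replicate 3 to 0.05 over the fits that left out 1 library.

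Tnfrsf12a (ENSMUSG00000023905, chromosome 17, 23675447 to 23677449, minus strand) encodes Fn14, the receptor for the ligand TWEAK, which has no death domain of its own. It had the highest deposited FPKM of the 10 in every group, with 119.0, 128.6 and 137.4 FPKM in Unt, 87.6, 106.4 and 115.8 in DOX, 117.4, 91.3 and 102.7 in D_DXZ and 103.3, 116.7 and 93.4 in D_MgHCF. This rank depends on the gene length used. The deposited length was 963 bases, against 1932 bases of exons in GENCODE M21, whose coordinates for this gene also differ. In DOX it had 1280, 1315 and 1290 reads, fewer than the 2636, 2446 and 2149 of Ripk3. All treated libraries lay below all Unt libraries, and the 3 treated groups overlapped each other. The means of 128.4 ± 9.22, 103.3 ± 14.4, 103.8 ± 13.1 and 104.5 ± 11.7 FPKM put the treated groups at 0.805 to 0.814 of Unt. None of these differences passed the test in the deposited scaling. For DOX against Unt the log2 fold change was -0.32 (95% interval -0.62 to -0.01, limma adjusted p = 0.0998), and for D_MgHCF against DOX it was 0.02 (-0.29 to 0.33, adjusted p = 0.915). For DOX against Unt, Tnfrsf12a moved with the scaling. It was at -1.79 under quantile normalization (-1.82 relative to the median gene), -1.68 under TPM (-0.60) and -1.26 under summed reads (-0.67), all of which were called. For D_MgHCF against DOX it was called at 1.31, 1.23 and 0.98 under these scalings, or 1.28, 0.10 and 0.23 relative to the median gene. Its ligand gene Tnfsf12 is given with the other ligands.

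The adaptor and the kinase downstream of the receptor both fell with DOX. Fadd (ENSMUSG00000031077, chromosome 7, 144577318 to 144582463, minus strand), the adaptor that brings caspase 8 to death receptors, had 3.79, 4.72 and 4.91 FPKM in Unt, 0.962, 0.719 and 0.709 in DOX, 1.56, 0.762 and 0.365 in D_DXZ and 1.16, 2.06 and 4.99 in D_MgHCF. All DOX and D_DXZ libraries lay below Unt, and the D_MgHCF libraries ran from near the highest DOX library to just above the highest Unt library, which was D_MgHCF replicate 3. The means were 4.47 ± 0.598, 0.797 ± 0.143, 0.894 ± 0.606 and 2.74 ± 2.00 FPKM. Fadd fell with DOX by 1.60 on the log2 scale (SE 0.34, limma adjusted p = 0.00319), with the same call in all 22 alternatives. Its rise in D_MgHCF over DOX was 0.93 (95% interval 0.17 to 1.69, limma adjusted p = 0.0430) and was not firm, with an adjusted p close to the threshold. Without D_MgHCF replicate 3 it was 0.52 (adjusted p = 0.107), and the call was also lost without D_MgHCF replicate 2 (1.00, adjusted p = 0.0643), any of the DOX libraries (0.89 to 0.99, adjusted p = 0.0668 to 0.102), any of the Unt libraries (adjusted p = 0.0553 to 0.0582) or D_DXZ replicate 2 (adjusted p = 0.0571). With the replicate number as a block the adjusted p was 0.0695, without a filter 0.0549, with only these groups in the fit 0.0917 and under quantile normalization 0.335 (0.51). Against Unt, Fadd in D_MgHCF was at -0.68 (-1.44 to 0.08, adjusted p = 0.140) with all libraries and at -1.08 (adjusted p = 0.00541) without D_MgHCF replicate 3. Fadd overlaps the antisense gene Faddos over 4195 bases, whose level was at most 0.277 FPKM, and shares stretches of at least 150 bases and 95% identity with transcripts of 19 other genes, so that its reads are less certain.

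Ripk1 (ENSMUSG00000021408, chromosome 13, 34002363 to 34037147, plus strand), the kinase at the branch between survival, apoptosis and necroptosis, had 7.31, 6.997 and 7.57 FPKM in Unt, 1.93, 1.63 and 2.04 in DOX, 3.24, 2.50 and 2.38 in D_DXZ and 2.68, 2.64 and 1.98 in D_MgHCF. All 9 treated libraries lay below the Unt libraries, and the D_DXZ libraries lay above the DOX libraries. The means were 7.29 ± 0.288, 1.87 ± 0.211, 2.70 ± 0.465 and 2.43 ± 0.389 FPKM. Ripk1 fell with DOX by 1.53 on the log2 scale (SE 0.13, limma adjusted p = 1.44e-05) and remained lower than Unt in D_DXZ (-1.17, adjusted p = 0.000118) and in D_MgHCF (-1.28, adjusted p = 8.33e-05). The change of D_MgHCF from DOX was 0.25 (-0.04 to 0.54, adjusted p = 0.129), which became 0.35 (adjusted p = 0.0303) without D_MgHCF replicate 3 and -0.16 under quantile normalization, and was called under TPM (1.34) and summed reads (0.90), where it was 0.21 and 0.15 relative to the median gene. Ripk1 overlaps Serpinb6a on the opposite strand over 432 bases. Serpinb6a had means of 38.9, 150.6, 120.6 and 38.5 FPKM in Unt, DOX, D_DXZ and D_MgHCF, and since the use of strand in counting is not stated, its share in the Ripk1 reads was not tested. Ripk1 also overlaps the processed pseudogenes Gm17083, over 1366 bases on the opposite strand, and Gm17084, over 511 bases on the same strand. Their highest levels were 0.24 and 0 FPKM. Ripk1 shares stretches of at least 150 bases and 95% identity with transcripts of 2 other genes, the longest over 511 bases. Whether these are the overlapping genes was not tested.

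The genes of the necroptosis effectors took different courses. Ripk3 (ENSMUSG00000022221, chromosome 14, 55784995 to 55788865, minus strand), the kinase that activates MLKL, had 22.6, 22.4 and 24.9 FPKM in Unt, 75.8, 83.2 and 81.1 in DOX, 56.6, 76.7 and 73.9 in D_DXZ and 82.1, 81.2 and 45.3 in D_MgHCF. All treated libraries lay above all Unt libraries, and the lowest treated library was D_MgHCF replicate 3. With means of 23.3 ± 1.38, 79.997 ± 3.82, 69.1 ± 10.9 and 69.5 ± 21.0 FPKM, the DOX mean was 3.43 times and the D_MgHCF mean 2.98 times the Unt mean. Ripk3 rose with DOX by 1.74 on the log2 scale (SE 0.21, limma adjusted p = 7.7e-05), with D_DXZ by 1.52 (adjusted p = 0.000306, not called under TPM at 0.36) and with D_MgHCF by 1.49 (adjusted p = 0.000422), each against Unt. The rise with DOX held in all 22 alternatives and was 1.49, 1.40 and 0.81 relative to the median gene under TPM, summed reads and quantile normalization. The rise with D_MgHCF over Unt also held in all 22, at 1.34 to 1.77 over the fits that left out 1 library, the highest being without D_MgHCF replicate 3. Between D_MgHCF and DOX the difference was -0.25 (-0.71 to 0.21, adjusted p = 0.339) in the deposited scaling and 0.03 without D_MgHCF replicate 3, but 0.96 under TPM, 0.71 under summed reads and 0.87 under quantile normalization, each of these 3 called, so that no direction is given for it.

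Mlkl (ENSMUSG00000012519, chromosome 8, 111311797 to 111338177, minus strand), the membrane-breaching substrate of RIPK3, had 27.3, 26.7 and 28.3 FPKM in Unt, 40.0, 50.5 and 50.6 in DOX, 39.7, 37.6 and 38.2 in D_DXZ and 16.7, 14.4 and 22.5 in D_MgHCF. The D_MgHCF libraries were the lowest of all 12 and overlapped no other group, and the D_DXZ libraries lay between Unt and DOX without overlap. The means were 27.4 ± 0.803, 47.0 ± 6.05, 38.5 ± 1.10 and 17.9 ± 4.18 FPKM, so that D_MgHCF had 0.380 of the DOX mean and 0.652 of the Unt mean. Mlkl fell in D_MgHCF against DOX by 1.36 on the log2 scale (limma adjusted p = 3.35e-05) and against Unt by 0.61 (adjusted p = 0.0077). The first kept its sign under TPM (-0.19, not called), summed reads (-0.43) and quantile normalization (-0.67), which was -1.33, -1.18 and -0.70 relative to the median gene, and the second kept its sign and call in all 22 alternatives. The rise of Mlkl with DOX over Unt was 0.75 (SE 0.14, limma adjusted p = 0.00168) in the deposited scaling. It reversed to -0.59 under TPM, where Mlkl was called lower, to -0.18 under summed reads and to -0.12 under quantile normalization. Relative to the median gene it was 0.49, 0.42 and -0.15 in these 3 scalings.

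The ratio of Ripk3 to Mlkl within a library is the same under TPM, summed reads and the deposited FPKM, which differ by a factor per library, but not under quantile normalization. With the deposited FPKM it was 0.851 ± 0.028 in Unt, 1.71 ± 0.156 in DOX, 1.80 ± 0.329 in D_DXZ and 4.19 ± 1.92 in D_MgHCF. The D_MgHCF libraries had ratios of 4.93, 5.63 and 2.01, the last in replicate 3. The ratio of Ripk3 to Ripk1 was 3.20 ± 0.096 in Unt, 43.3 ± 6.61 in DOX, 26.4 ± 7.74 in D_DXZ and 28.1 ± 4.56 in D_MgHCF. All treated libraries thus carried several times more Ripk3 relative to Ripk1 than the Unt libraries. The pairs were chosen after the values were seen, and the ratios are given without a test.

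**Figure D3:**
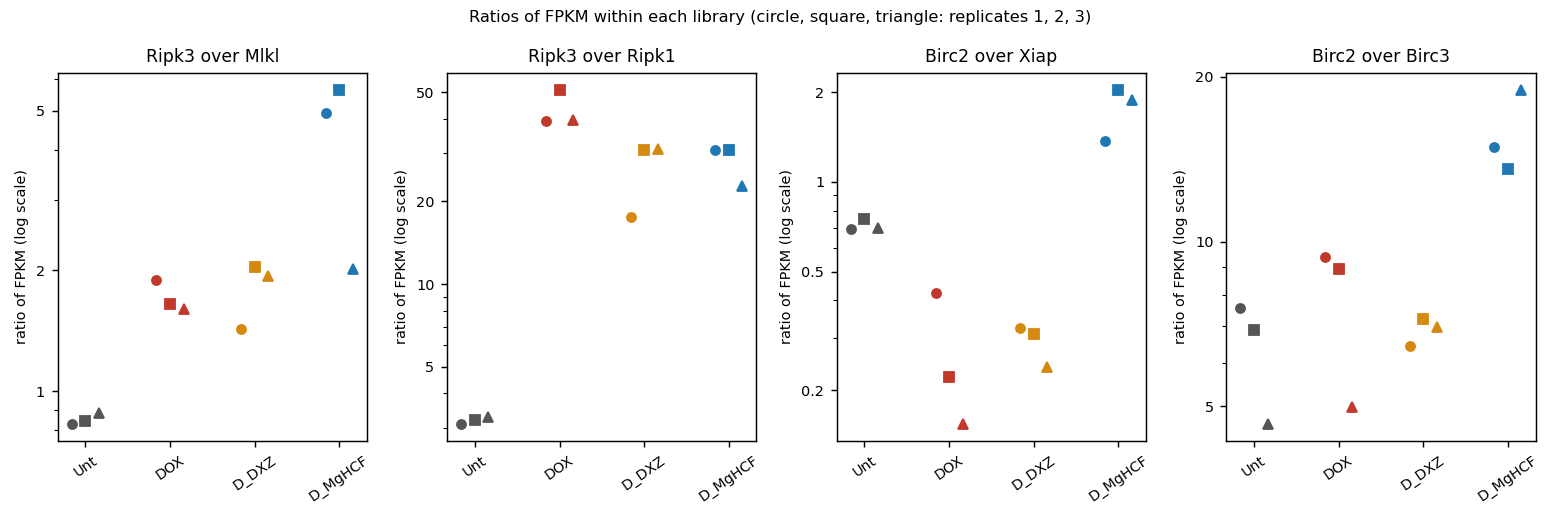
Ratio of the FPKM of 2 genes within each library on a log axis, for Ripk3 to Mlkl, Ripk3 to Ripk1, Birc2 to Xiap and Birc2 to Birc3, with points for libraries, by group. The ratio of Ripk3 to Ripk1 averages 3.20 in Unt and 43.3 in DOX, and that of Birc2 to Xiap averages 1.76 in D_MgHCF, above the 0.715 of Unt.

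Cflar (ENSMUSG00000026031, chromosome 1, 58711508 to 58758884, plus strand), which encodes the caspase 8 inhibitor cFLIP, had 2.74, 2.43 and 2.68 FPKM in Unt, 2.06, 1.97 and 1.501 in DOX, 1.87, 2.15 and 2.02 in D_DXZ and 5.42, 4.96 and 3.93 in D_MgHCF. The D_MgHCF libraries lay above every other library, and the DOX and D_DXZ libraries overlapped each other below Unt. The means were 2.62 ± 0.167, 1.84 ± 0.299, 2.01 ± 0.141 and 4.77 ± 0.764 FPKM. Cflar rose in D_MgHCF by 1.02 over DOX (limma adjusted p = 0.000127), by 0.93 over D_DXZ (adjusted p = 0.000274) and by 0.67 over Unt (adjusted p = 0.00338), and these calls were kept in all 22 alternatives. For DOX against Unt the value was -0.35 (-0.65 to -0.05, adjusted p = 0.0627), which did not pass the test, and turned to 0.09 under quantile normalization. It was called without D_MgHCF replicate 3 (-0.35, adjusted p = 0.0230) and in 7 of the 10 other alternatives. These were a pseudocount of 0.1 (-0.49, adjusted p = 0.0481), a filter at 1 FPKM (adjusted p = 0.0333), only these groups in the fit (adjusted p = 0.0389), voom (-0.51, adjusted p = 0.0416), the unadjusted p, TPM (-1.60) and summed reads (-0.99). Cflar shares near-identical stretches with transcripts of 121 other genes, more than any other of the 10, which makes its level less certain.

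The inhibitor of apoptosis genes differed from each other. Birc2 (ENSMUSG00000057367, chromosome 9, 7818227 to 7837064, minus strand), which encodes the ubiquitin ligase cIAP1, had 7.19, 6.94 and 5.46 FPKM in Unt, 3.45, 2.08 and 1.55 in DOX, 3.34, 3.52 and 2.50 in D_DXZ and 11.04, 11.8 and 9.39 in D_MgHCF. The groups formed 3 levels that did not overlap, with DOX and D_DXZ together at the bottom, Unt between and D_MgHCF at the top. The means were 6.53 ± 0.938, 2.36 ± 0.983, 3.12 ± 0.542 and 10.8 ± 1.25 FPKM. Birc2 fell with DOX by 1.20 on the log2 scale (SE 0.20, limma adjusted p = 0.000692) and rose in D_MgHCF over DOX by 1.84 (adjusted p = 4.02e-05), and both calls were kept in all 22 alternatives. Its excess of D_MgHCF over Unt was 0.64 (adjusted p = 0.0279) and was less firm. It was not called without Unt replicate 2 (0.69, adjusted p = 0.0559), Unt replicate 3 (0.54, adjusted p = 0.0983), D_MgHCF replicate 1 (0.62, adjusted p = 0.0661) or D_MgHCF replicate 2 (0.58, adjusted p = 0.0865), nor under TPM (0.56).

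Birc3 (ENSMUSG00000032000, chromosome 9, 7848699 to 7873186, minus strand), the neighbouring gene that encodes cIAP2, had the lowest mean of the 10 genes in every group. It had 0.952, 1.01 and 1.18 FPKM in Unt, 0.368, 0.233 and 0.311 in DOX, 0.519, 0.487 and 0.359 in D_DXZ and 0.741, 0.871 and 0.496 in D_MgHCF. The Unt libraries lay above all others, and the D_MgHCF libraries lay above DOX and overlapped D_DXZ. The means were 1.05 ± 0.117, 0.304 ± 0.068, 0.455 ± 0.085 and 0.703 ± 0.190 FPKM. Birc3 fell with DOX by 0.65 on the log2 scale (SE 0.11, limma adjusted p = 0.000597), in all of the 21 alternatives that tested it, and was higher in D_MgHCF than in DOX by 0.38 (adjusted p = 0.0128). The latter call was lost without DOX replicate 2 (0.34, adjusted p = 0.0518) and under quantile normalization (0.04). Relative to the median gene the D_MgHCF change was 0.17 under TPM but -0.07 under summed reads and 0.02 under quantile normalization. Against Unt, D_MgHCF was at -0.27 (adjusted p = 0.0675), and was called at -0.34 (adjusted p = 0.0423) without D_MgHCF replicate 2, at -0.58 under TPM and at -0.46 under quantile normalization. The ratio of Birc2 to Birc3 was 6.36 ± 1.53 in Unt, 7.75 ± 2.41 in DOX, 6.87 ± 0.399 in D_DXZ and 15.8 ± 2.78 in D_MgHCF. The transcripts of both are 82.9% identical over 350 bases, under the 95% used in the search for near-identical transcripts. Birc3 shares stretches of at least 150 bases and 95% identity with transcripts of 9 other genes, so that its reads are less certain.

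Xiap (ENSMUSG00000025860, chromosome X, 42059679 to 42109656, plus strand), which encodes the direct caspase inhibitor, had 10.4, 9.26 and 7.79 FPKM in Unt, 8.17, 9.35 and 10.0 in DOX, 10.3, 11.4 and 10.5 in D_DXZ and 8.02, 5.82 and 4.995 in D_MgHCF. Unt and DOX overlapped, D_DXZ lay above DOX, and D_MgHCF lay below DOX and D_DXZ while overlapping Unt. The means were 9.14 ± 1.29, 9.19 ± 0.944, 10.7 ± 0.560 and 6.28 ± 1.57 FPKM. DOX and Unt differed by 0.01 on the log2 scale (-0.33 to 0.35), an estimate that was called at -1.30 under TPM and -0.84 under summed reads, which is -0.22 and -0.25 relative to the median gene. In D_MgHCF against DOX, Xiap was called higher, at 0.62 under TPM and 0.35 under summed reads. Relative to the median gene these values were -0.52 and -0.40. In the deposited scaling Xiap instead fell by 0.50 (limma adjusted p = 0.0192), and under quantile normalization by 0.56. The call was lost without DOX replicate 2 (-0.49, adjusted p = 0.0542), DOX replicate 3 (-0.44, adjusted p = 0.0695) or D_MgHCF replicate 2 (-0.47, adjusted p = 0.0571), or with only these groups in the fit (adjusted p = 0.0732). Against Unt the fall was 0.49 (adjusted p = 0.0278), and it was not called without Unt replicate 1 (-0.41, adjusted p = 0.102), Unt replicate 2 (-0.48, adjusted p = 0.0764), D_MgHCF replicate 2 (-0.46, adjusted p = 0.0799) or D_MgHCF replicate 3 (-0.36, adjusted p = 0.0611), under quantile normalization (-0.44) or with only these groups in the fit (adjusted p = 0.0961). The ratio of Birc2 to Xiap, which a factor per library does not alter, was 0.715 ± 0.030 in Unt, 0.266 ± 0.139 in DOX, 0.290 ± 0.046 in D_DXZ and 1.76 ± 0.344 in D_MgHCF.

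**Figure D4:**
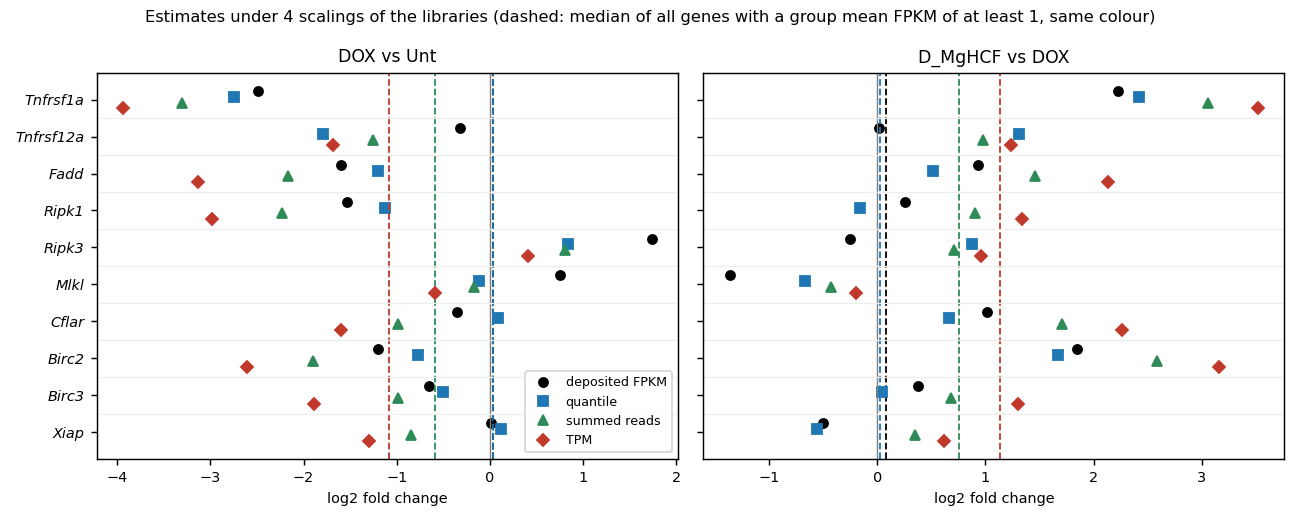
Log2 fold change of the 10 genes in DOX against Unt and in D_MgHCF against DOX under the deposited FPKM, quantile normalization, summed reads and TPM, with dashed lines at the median of 13266 genes. Mlkl for DOX against Unt lies at 0.75 with the deposited FPKM and at -0.59 with TPM, where the median gene lies at -1.08, whereas Tnfrsf1a is negative in all 4.

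The addition of dexrazoxane to doxorubicin was compared with DOX alone for the same genes. No gene of the 10 was called, and none of all genes tested was called either with limma, with 2388 of the 25044 genes (9.54%) at an unadjusted p under 0.05 and 0 with voom on the recovered reads. A pseudocount of 0.1 gave 6 calls over all genes, quantile normalization 3 and a filter at 1 FPKM 2. At that unadjusted threshold 1 of the 10 passed, Ripk1, with 0.36 (95% interval 0.07 to 0.65, limma adjusted p = 0.446). The D_DXZ libraries lay above DOX without overlap for Ripk1 and Xiap and below it for Mlkl, whose difference was -0.27 (-0.59 to 0.05, adjusted p = 0.591). The share of all genes without overlap between these groups was not counted, so this separation is only a description. Tnfrsf1a differed by 0.21 with an interval of -0.74 to 1.15, Fadd by 0.03 (-0.73 to 0.79) and Birc2 by 0.33 (-0.12 to 0.77), intervals that do not show that D_DXZ and DOX acted alike. Ripk3 differed by -0.22 (-0.68 to 0.24), and by 0.0043 under quantile normalization.

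Against Unt, D_DXZ had 7 of the 10 genes called, 2 higher and 5 lower, where 33.9% of all genes were called, 15.9% higher and 18% lower. Tnfrsf1a (-2.28), Fadd (-1.57), Ripk1 (-1.17), Birc2 (-0.87, not called under quantile normalization at -0.53) and Birc3 (-0.49) fell, and Ripk3 (1.52) rose. Mlkl rose by 0.48 (limma adjusted p = 0.0259) in the deposited scaling. It was called lower at -0.69 under TPM, and was at -0.26 under summed reads and -0.18 under quantile normalization. Its call in the deposited scaling was lost without any 1 of the Unt or D_DXZ libraries (0.45 to 0.50, limma adjusted p up to 0.0781). D_MgHCF had 6 of the 10 called against Unt, 3 higher and 3 lower, where 40.1% of all genes were called, 24.3% higher and 15.7% lower. These were Ripk3, Cflar and Birc2 above Unt and Ripk1, Mlkl and Xiap below, and all 10 genes kept the sign of this difference under the 3 other scalings. With TPM, 2 were called higher and 5 lower (26.6% and 19.2% of all genes), with summed reads 3 and 3 (29.3% and 16.5%), and with quantile normalization 3 and 4 (17% and 18.5%). For D_DXZ against Unt the calls were 0 higher and 9 lower with TPM (3.65% and 40.3%), 1 and 8 with summed reads (7.64% and 31.7%), and 1 and 5 with quantile normalization (14% and 14.6%).

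The protective agents were compared under the same exposure to doxorubicin, D_MgHCF against D_DXZ. Of the 10 genes, 5 were called, 3 higher and 2 lower, where 48.4% of all genes were called, 29.4% higher and 19% lower. Tnfrsf1a was higher in D_MgHCF by 2.02 (limma adjusted p = 0.0029), Birc2 by 1.52 (adjusted p = 0.000165) and Cflar by 0.93, with no overlap between libraries. In the deposited scaling Mlkl was lower, at -1.09 (adjusted p = 0.000164), and so was Xiap, at -0.71 (adjusted p = 0.00335), the latter with 0.23 under TPM. Neither was called under TPM or summed reads, where Mlkl was at -0.09 and -0.34 and Xiap under summed reads at -0.02. The median gene was at 0.94 under TPM and 0.60 under summed reads, so that Mlkl and Xiap lay below it in both. Fadd differed by 0.90 (adjusted p = 0.0516), and was called without D_DXZ replicate 1 (1.14, adjusted p = 0.0300) or D_MgHCF replicate 1 (1.23, adjusted p = 0.0102). It was also called with a pseudocount of 0.1 (1.46, adjusted p = 0.0346), a filter at 1 FPKM (adjusted p = 0.0219), voom (1.56, adjusted p = 0.0314), TPM (2.00, adjusted p = 0.00679), summed reads (1.35, adjusted p = 0.0124) and at the unadjusted p. Birc3 differed by 0.22 (adjusted p = 0.110), and by 0.31 (adjusted p = 0.0182) without D_MgHCF replicate 3. It was called at 0.99 under TPM and 0.51 under summed reads and was at -0.09 under quantile normalization. Ripk3 differed by -0.03 (adjusted p = 0.921), by 0.25 without D_MgHCF replicate 3 and by 0.05 and 0.02 without D_DXZ replicate 2 or 3, none of them called, and was called at 1.01, 0.74 and 0.87 under TPM, summed reads and quantile normalization. Under TPM 8 were called higher and 0 lower (51.1% and 6.23% of all genes), under summed reads 8 and 0 (45.6% and 9.51%), and under quantile normalization 5 and 3 (18.3% and 19.3%). The agents were not compared over doses, which are not given in the sources used here.

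The other genes of the pathway came from 9 lists of 59 genes, all of them tested. In DOX against Unt, 12 rose, 21 fell and 26 did not pass the test, with a median log2 fold change of -0.08 beside 0 over all genes, of which 18.6% rose and 19.9% fell. In D_MgHCF against DOX, 26 rose, 11 fell and 22 did not pass, with a median of 0.21 beside 0.07 over all genes, of which 31.4% rose and 20.1% fell. In D_MgHCF against Unt, 16 rose, 10 fell and 33 did not pass (24.3% and 15.7% of all genes rose and fell). Without D_MgHCF replicate 3 these counts were 28 and 12 against DOX and 19 and 16 against Unt, with 58 of the pathway genes tested. More of all genes were also called in that fit. Of 24208 genes, 9151 rose and 5304 fell against DOX, and 8016 rose and 4687 fell against Unt. In D_DXZ against DOX none passed. The split depends on the scaling. For DOX against Unt it was 3 higher and 42 lower under TPM (4.44% and 40.8% of all genes), 5 and 35 under summed reads (8.29% and 33.2%), and 10 and 17 under quantile normalization (16.7% and 17.3%). For D_MgHCF against DOX it was 47 and 3 (53.9% and 6.75%), 43 and 6 (49.4% and 9.59%), and 15 and 7 (18.5% and 19.6%). The counts per list that follow are for the deposited scaling and are to be read beside the shares over all genes of 18.6% higher and 19.9% lower for DOX against Unt and 31.4% and 20.1% for D_MgHCF against DOX.

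Among ligands, Tnf, Lta, Fasl, Tnfsf10 and Tnfsf15 stayed under a mean of 1 FPKM in every group. Tnfsf12, which encodes the Fn14 ligand TWEAK, had 3.66 ± 0.322 FPKM in Unt, 6.38 ± 1.92 in DOX, 4.11 ± 1.11 in D_DXZ and 1.495 ± 0.493 in D_MgHCF, and fell in D_MgHCF by 1.55 against DOX (limma adjusted p = 0.000332) and by 0.92 against Unt (adjusted p = 0.0118). Of the 9 other receptors, 2 rose and 2 fell with DOX, and 6 rose and 0 fell in D_MgHCF against DOX (31.4% and 20.1% of all genes). Tnfrsf23, a decoy receptor for the ligand TRAIL, rose with DOX from 2.58 ± 0.0776 to 16.8 ± 1.83 FPKM (2.31 on the log2 scale, adjusted p = 3.21e-05) and was at 14.2 ± 4.87 in D_MgHCF, above Unt by 2.03. Tnfrsf1b, which encodes the receptor TNFR2 without a death domain, fell with DOX from 11.7 ± 0.679 to 6.24 ± 0.668 FPKM (-0.82) and reached 22.9 ± 3.18 in D_MgHCF, above DOX by 1.72 (adjusted p = 4.04e-06). Tnfrsf21, the death receptor DR6, had 1.78 ± 0.784 FPKM in DOX and 8.98 ± 2.24 in D_MgHCF, a rise of 1.86. Tnfrsf25, the death receptor DR3, rose with DOX over Unt by 0.80 in the deposited scaling, with 0.23 under TPM and 0.34 under summed reads, neither of which was called, and rose in D_MgHCF over DOX by 0.92. The directions given for these 4 receptors were the same under all 3 other scalings.

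Among the adaptors and ubiquitin ligases, 2 of 9 rose and 3 fell with DOX (18.6% and 19.9% of all genes), and 5 rose and 1 fell in D_MgHCF against DOX (31.4% and 20.1%). Traf2, which carries cIAP1 and cIAP2 to the receptor complex, had 10.4 ± 0.882 FPKM in Unt, 1.74 ± 0.577 in DOX, 2.88 ± 0.706 in D_DXZ and 6.25 ± 4.03 in D_MgHCF, and fell with DOX by 2.08 (limma adjusted p = 0.000472). Its D_MgHCF libraries had 3.01, 4.98 and 10.8 FPKM, the highest in replicate 3, and the rise over DOX was 1.28 with this library and 0.86 without it. Its difference from Unt was -0.80, not called, or -1.22 without this library, which was called. Traf6, another ligase of receptor complexes, fell with DOX from 2.73 ± 0.176 to 0.479 ± 0.074 FPKM (-1.33), and its rise in D_MgHCF over DOX was 0.61, or 0.39 without replicate 3. Rbck1, a subunit of the linear ubiquitin ligase complex, rose with DOX by 0.99 in the deposited scaling but was at 0.07 under summed reads, not called, and -0.34 under TPM.

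Of the TAK1 and IKK genes, 2 of 8 rose and 4 fell with DOX (18.6% and 19.9% of all genes), and 3 rose and 3 fell in D_MgHCF against DOX (31.4% and 20.1%). Tab1, a binding partner of TAK1, fell with DOX from 14.1 ± 0.652 to 2.55 ± 0.445 FPKM (-2.09, limma adjusted p = 0.000131) and was at 2.97 ± 1.94 in D_MgHCF, where its log2 fold change against Unt was -2.03. Map3k7, which encodes TAK1 itself, rose with DOX by 1.23 in the deposited scaling and was at -0.08 under TPM. Tab2, another partner of TAK1, had 22.2 ± 0.882 FPKM in Unt, 23.98 ± 3.02 in DOX and 8.02 ± 2.46 in D_MgHCF, and fell in D_MgHCF against DOX by 1.497 (adjusted p = 4.63e-05), with -0.38 under TPM, not called. In the same comparison Tbk1, an IKK-related kinase, rose by 1.13, and Ikbkb, which encodes a catalytic IKK subunit, fell by 1.12, with -0.23 under TPM, not called. Of the deubiquitinase genes, 3 of 5 fell with DOX (19.9% of all genes) and 2 rose in D_MgHCF against DOX (31.4%). Spata2, the adaptor that recruits the deubiquitinase CYLD, had 11.7 ± 0.904 FPKM in Unt, 1.65 ± 0.58 in DOX, 2.43 ± 0.907 in D_DXZ and 10.5 ± 0.677 in D_MgHCF, with changes of -2.28 (adjusted p = 1.5e-05) and 2.14 (adjusted p = 1.53e-05) that kept their signs under all 3 other scalings.

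Of caspase 8 and the other sensors of necroptosis, 3 of 5 fell with DOX (19.9% of all genes) and 4 rose in D_MgHCF against DOX (31.4%). Casp8, named outside the rule for its place in the pathway, had means of 12.2 ± 0.395, 15.2 ± 0.189, 12.1 ± 0.61 and 12.8 ± 3.15 FPKM and was not called in the deposited scaling with all libraries. For DOX against Unt it was at 0.29 with the deposited FPKM and was called at -1.02 under TPM and -0.59 under summed reads, where the median gene was at -1.08 and -0.59. For D_MgHCF against DOX it was at -0.26 and was called at 0.92 and 0.64, where the median gene was at 1.13 and 0.75. Without D_MgHCF replicate 3, Casp8 in D_MgHCF was called against Unt at 0.24 and against D_DXZ at 0.25. Ticam1, the adaptor TRIF that binds RIPK1 and RIPK3, fell with DOX from 7.86 ± 0.342 to 1.16 ± 0.468 FPKM (-2.05, limma adjusted p = 7.85e-05) and was at 5.39 ± 1.99 in D_MgHCF. Tlr3, a receptor for double-stranded RNA, had 0.893 ± 0.132 FPKM in DOX and 4.76 ± 1.92 in D_MgHCF, a rise of 1.56 (adjusted p = 0.000187). Zbp1, a nucleic acid sensor that engages RIPK3, was at 2.51 ± 0.175 FPKM in DOX and 6.08 ± 2.32 in D_MgHCF, a rise of 0.97. The regulators of RIPK3 and MLKL had 4 of 6 higher and 2 lower with DOX (18.6% and 19.9% of all genes), and 2 higher and 4 lower in D_MgHCF against DOX (31.4% and 20.1%). Hsp90aa1, a chaperone of RIPK1, RIPK3 and MLKL, had 114.0 ± 19.1, 650.1 ± 73.6, 572.8 ± 83.8 and 143.2 ± 17.5 FPKM in Unt, DOX, D_DXZ and D_MgHCF, with changes of 2.51 and -2.18 that kept their signs under all 3 other scalings. Hsp90ab1 rose by 1.96 with DOX, with -0.05 under quantile normalization, and Cdc37, the kinase cochaperone, rose by 1.37 in the deposited scaling, with 0.03 under TPM, not called, 0.43 under summed reads and 0.31 under quantile normalization. None of these 6 genes was called in D_MgHCF against Unt with limma in the deposited scaling, where 40.1% of all genes were. This does not show that their levels equalled those of Unt.

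Of the 7 other IAP genes, 1 rose and 2 fell with DOX (18.6% and 19.9% of all genes) and 2 rose and 1 fell in D_MgHCF against DOX (31.4% and 20.1%). Birc7, Naip1, Naip2, Naip5 and Naip6 stayed under a mean of 1 FPKM in every group. Birc6, which encodes a large ubiquitin-conjugating IAP, fell with DOX from 8.21 ± 0.485 to 3.65 ± 0.125 FPKM (-0.98, limma adjusted p = 0.00021) and was at 3.91 ± 0.689 in D_MgHCF. Birc5, which encodes the mitotic protein survivin, rose with DOX by 0.53 in the deposited scaling and was negative in the 3 other scalings. Among the IAP antagonists, Xaf1, a binding partner of XIAP, fell with DOX by 0.68 (adjusted p = 0.0349), with -0.43 under quantile normalization, not called, and Htra2, the mitochondrial protease that cleaves IAPs, rose by 0.68 in the deposited scaling but was at -0.66 under TPM and -0.24 under summed reads. Septin4, listed as Sept4, stayed under a mean of 1 FPKM.

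**Figure D5:**
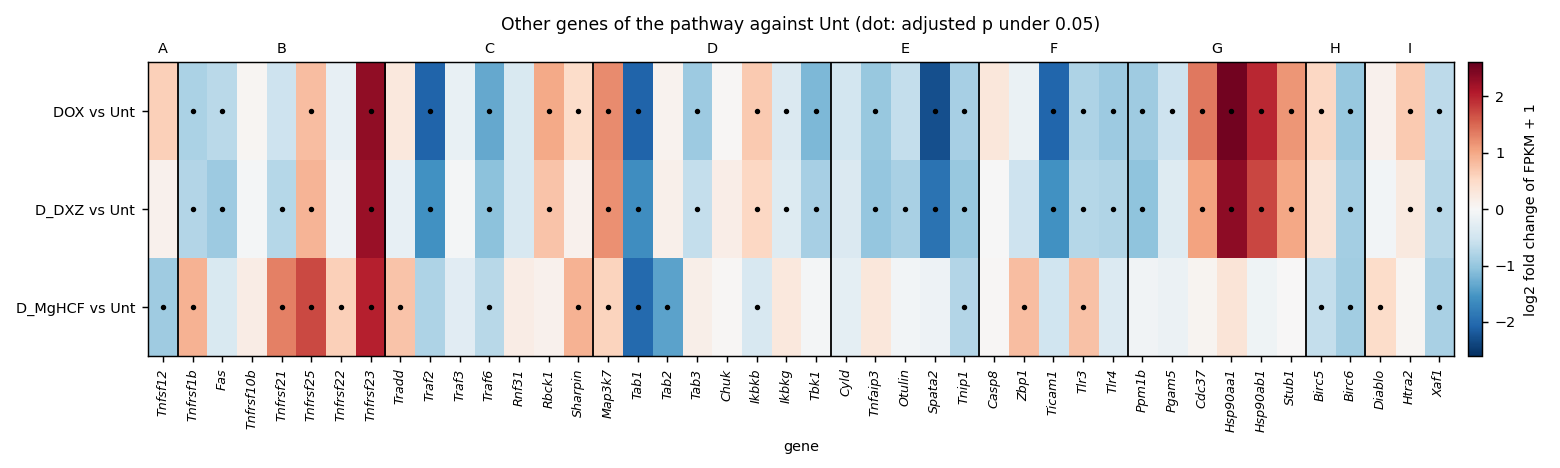
Log2 fold change against Unt, by colour, of the 44 other pathway genes with a group mean of at least 1 FPKM, with a column for each gene, rows for DOX, D_DXZ and D_MgHCF and dots for an adjusted p under 0.05. Letters mark the lists, A ligands, B other receptors, C adaptors and ubiquitin ligases, D TAK1 and IKK kinases, E deubiquitinases, F caspase 8 and other necroptosis sensors, G regulators of RIPK3 and MLKL, H other IAP genes and I IAP antagonists. Hsp90aa1 is at 2.51 and Spata2 at -2.28 in DOX.

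Tnfrsf1a had the widest range of group means of the 10, 2.49 on the log2 scale. The genes whose levels followed it most closely over the 12 libraries, among 13266 genes, were Ahdc1 (Pearson r = 0.997), Trmt12 (r = 0.996) and Rilpl1 (r = 0.994), as a description of libraries that share their group structure. Rilpl1 had means of 13.1, 2.49, 2.70 and 11.2 FPKM in Unt, DOX, D_DXZ and D_MgHCF. Ahdc1 had 7.04, 1.66, 1.86 and 6.38 FPKM, and Trmt12 had 4.66, 0.935, 1.01 and 4.87.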

How the data were processed

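RNA of H9c2 cells in 4 groups of 3 libraries was prepared with a NEBNext kit and sequenced by the authors. Per the labels, the submitters' processing notes name HISAT2 2.0.5 and the builds GRCm38 and mm10. The counting program, its use of strand and the annotation release are not given in the sources used here. The table deposited by the authors gives the FPKM of 54345 genes in each library beside Ensembl identifiers, gene lengths and GRCm38 coordinates. No column of values was left unused, and 27 symbols turned into dates were handled by identifier.

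FPKM times gene length was a whole multiple of 1 step per library, which recovered whole reads for 100% of the values (tolerance 0.05 read). These reads ranged from 16626514 to 19365119 per library. Reads are not independent molecules, so that the spread between libraries and not the read number gives the error.

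The log2(FPKM + 1) of genes above 0 in at least 3 libraries entered limma 3.58.1 (R 4.3.3). All 4 groups shared 1 model with a trend in the prior and no covariate, from which 6 comparisons were taken. A gene was called at a Benjamini-Hochberg adjusted p under 0.05 over all 25044 genes tested. The fit was tested on simulated data. The study's tests on the negative binomial distribution need counts, so voom on the recovered reads was an alternative. Further alternatives were the replicate number as a block, only the groups compared in the model, 0.1 as the pseudocount, no filter or one at 1 FPKM, unadjusted p, scaling to TPM, to the summed reads or by quantiles, and leaving out each of the 12 libraries. The unadjusted p keeps every call by its nature. Leaving out a library outside a comparison does not change its log2 fold change. Calls kept in all alternatives are therefore not that many separate checks. Near-identical transcripts were searched with BLAST 2.17.0 (at least 95% identity over 150 bases). Promoter windows came from RefSeq on GRCm38.p6, and no protein sequence is shown.

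The 10 genes and the 9 pathway lists were chosen with earlier results of these data known. All 10 genes are named. From each list at most 3 genes per comparison are named, in order of the size of change among those with an adjusted p under 0.05 and a mean of at least 1 FPKM in the higher group, with Casp8 and values of a gene named for another comparison beside them. Genes under 1 FPKM in all groups are given by name only.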

Additional observations from a re-analysis of the deposited data

How the results depend on the processing

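Limits. The groups hold 3 libraries of 1 cell line, the lowest genes rest on 15 to 478 reads per value (Birc3 and Fadd), and D_MgHCF replicate 3 stands apart. Of the single-gene values under the alternatives, 1176 kept their direction and side of the threshold, 42 fell short of it, 47 newly passed it and 49 changed sign. The causes were not tested. The filter at 1 FPKM gave no value for Birc3.

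In DOX against Unt the sign changed for Mlkl (0.75) to -0.59 under TPM, -0.18 under summed reads and -0.12 under quantile normalization, for Cflar (-0.35) to 0.0858 under quantile normalization, and for Xiap (0.01) to -1.30 under TPM and -0.84 under summed reads. In D_DXZ against Unt it changed for Mlkl to -0.69, -0.26 and -0.18 under TPM, summed reads and quantile normalization, for Cflar to 0.0831 under quantile normalization, and for Xiap to -0.92 under TPM and -0.48 under summed reads. In D_MgHCF against DOX it changed for Ripk3 to 0.96, 0.71 and 0.87 under those 3 scalings, for Ripk1 to -0.16 under quantile normalization, and for Xiap to 0.62 under TPM and 0.35 under summed reads. In D_MgHCF against D_DXZ it changed for Ripk3 to 1.01, 0.74 and 0.87 under the same scalings, for Ripk1 to 0.77 under TPM and 0.45 under summed reads, for Birc3 to -0.0944 under quantile normalization and for Xiap to 0.23 under TPM. In D_DXZ against DOX, where no gene was called, Fadd changed to -0.0283 with a pseudocount of 0.1, -0.0516 under quantile normalization and -0.0302 with voom, Ripk3 to 0.0043 and Cflar to -0.0027 under quantile normalization.

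Over the fits that left out 1 library, sign changes occurred among values that were not called. For DOX against Unt, Xiap ranged from -0.088 to 0.10. For D_DXZ against DOX, Tnfrsf1a ranged from -0.12 to 0.60, Tnfrsf12a from -0.10 to 0.10, Fadd from -0.21 to 0.24 and Cflar from -0.0022 to 0.14. For D_MgHCF, Tnfrsf12a ranged from -0.0927 to 0.11 and Ripk3 from -0.39 to 0.0299 against DOX, Tnfrsf1a from -0.63 to 0.0475 against Unt, and Tnfrsf12a from -0.077 to 0.10 and Ripk3 from -0.17 to 0.25 against D_DXZ.

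The number of the 10 genes called in D_MgHCF against DOX was 4 to 7 over the fits that left out 1 library. The lowest was without DOX replicate 2, where 44.1% of all genes were called. The number was 1 in D_DXZ against DOX at an unadjusted p (9.54% of all genes). In D_MgHCF against D_DXZ it was 8 in place of 5 under TPM, summed reads and quantile normalization alike. Of all genes, 51.1% were higher and 6.23% lower there under TPM, 45.6% and 9.51% under summed reads, and 18.3% and 19.3% under quantile normalization. Of the 59 pathway genes, 7 passed in D_DXZ against DOX at an unadjusted p, where 9.54% of all genes did. Under quantile normalization 22 in place of 37 passed in D_MgHCF against DOX, where 18.5% of all genes were higher and 19.6% lower. With only the groups compared in the fit, 15 in place of 26 passed in D_MgHCF against Unt. In that fit 58 of the pathway genes were tested, and 3598 of 22933 genes were called higher and 3034 lower. With the replicate number as a block, 7, 0, 6, 7, 6 and 5 of the 10 genes were called in DOX against Unt, D_DXZ against DOX, D_MgHCF against DOX, D_DXZ against Unt, D_MgHCF against Unt and D_MgHCF against D_DXZ, and the 1 call lost was that of Fadd in D_MgHCF against DOX. In the same order, this fit called 4572, 0, 7648, 3892, 5756 and 7118 of all 25044 genes higher. It called 4833, 0, 4970, 4379, 3796 and 4664 lower. The numbers gave no clear sign of pairing over all groups, since 2 of 18 correlations between same-numbered libraries exceeded 0.1 (range -0.368 to 0.376). Both were between DOX and D_DXZ, at 0.376 for replicate 1 and 0.292 for replicate 3, beside 0.050 for replicate 2. Whether these groups were paired is not known.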
